A study of Mus musculus with 6 samples.

Results

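The genes described here make, modify and move cholesterol and fatty acids. They were chosen by name from a list of 42 symbols, and 41 of these were found among the 11162 genes of the deposited table. Scd1 was not analysed here. Fads2 lay below the level needed for testing, a mean RPKM of 1 over the 6 libraries, which left 40 genes of the list among 9351 genes tested. RPKM counts the reads of a gene per kilobase of its length and per size of its library.

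RNA had been sequenced from naive CD8 T cells of mouse spleen, in 3 libraries of GFP-hi cells and 3 libraries of GFP-lo cells. All mice carried Nur77-GFP, the transgene Tg(Nr4a1-EGFP)GY139Gsat, in which EGFP is made under the control of Nr4a1 sequences, and the cells of both groups were OT-I cells, which share a transgenic T-cell receptor. Both groups had been sorted as CD8+, CD44lo, CD62Lhi and Qa2hi and were separated by reporter brightness. The labels do not say whether libraries came from separate animals, so p-values measure the spread between these libraries, which may be technical. In bulk RNA, fewer cells of a kind and less RNA per cell cannot be told apart.

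Cholesterol is built from acetyl-CoA through mevalonate and isoprenoids (the mevalonate arm), then through squalene and lanosterol (the squalene and sterol arm). The genes of both arms are switched on by SREBP-2, a membrane-bound transcription factor that Scap escorts out of the endoplasmic reticulum when sterols are low and that Insig proteins hold back when sterols are high. SREBP-1 drives fatty acid synthesis in the same way, whereas the oxysterol-sensing receptors LXR alpha and LXR beta switch on the exporters Abca1 and Abcg1. Naive T cells make little lipid, and both synthesis pathways are known to be switched on when T cells are activated to divide.

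Depth recovered from the values was 26170000 to 35940000 reads per library, so that 1 RPKM over 1 kilobase stood for 26.17 to 35.94 reads. Neither Nr4a1 (log2 fold change 0.02, limma adjusted p = 0.98) nor the GFP transcript (0.15, adjusted p = 0.42) checked the sort labels, since neither passed the test. All 11 CD8 T cell markers were tested, with mean levels from 40.2 to 812 RPKM. Heat-shock genes stood high in GFP-hi replicate 2 and GFP-lo replicate 2, with Hspa1b at 1904 and 2133 RPKM against at most 503 RPKM elsewhere. Nasal receptor genes, from the olfactory and vomeronasal families, had a median over 41 genes of 0.292, 0.037 and 0.419 RPKM in GFP-hi and 0.038, 0.263 and 0.583 RPKM in GFP-lo libraries, so that GFP-hi replicate 2 and GFP-lo replicate 1 stood lowest. Sample titles number the libraries in a single run that alternates GFP-lo and GFP-hi, and replicate numbers follow that order. At an adjusted p below 0.05, limma called 369 genes (3.95% of those tested), of which 230 (2.46%) were the higher ones in GFP-hi and 139 (1.49%) the lower ones.

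Promoter sequences of 4 genes are shown first, because the enzymes of cholesterol synthesis are known for a shared promoter grammar and 3 of them rose here. They come from RefSeq on build GRCm38.p6, read 5′ to 3′ on the strand of the gene, and cover up to 200 bases before the start without bases of an annotated exon. Capitals mark matches to TCACNNCA, a loose form of the sterol regulatory element to which SREBP binds, to CCAAT, the box bound by NF-Y, and to CACGTG, an E-box, on either strand. A CCAAT box on the other strand reads ATTGG. The Cyp51 stretch ends at base -50 from the start, so the CCAAT box at -29 in its window is not shown. Hmgcs1 and Cyp51 were higher in GFP-hi cells and Abca1 was lower, as given below. Sc5d, which did not pass, is shown as a sterol enzyme whose window holds a match to each of the motifs. The window of Hsd17b7, not shown, also holds a match to each, and that enzyme had a negative log2 fold change of -0.25 without passing.
Hmgcs1, chr13:119690151-119690350, plus strand: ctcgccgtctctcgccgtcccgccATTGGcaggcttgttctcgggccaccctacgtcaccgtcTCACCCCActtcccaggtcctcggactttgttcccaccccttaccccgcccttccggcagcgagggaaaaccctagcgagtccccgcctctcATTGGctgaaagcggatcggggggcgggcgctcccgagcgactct
Cyp51, chr5:4104747-4104897, minus strand: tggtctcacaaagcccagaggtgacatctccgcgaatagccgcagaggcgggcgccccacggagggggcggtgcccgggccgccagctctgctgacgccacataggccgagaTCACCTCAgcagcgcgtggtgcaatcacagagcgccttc
Sc5d, chr9:42264301-42264500, minus strand: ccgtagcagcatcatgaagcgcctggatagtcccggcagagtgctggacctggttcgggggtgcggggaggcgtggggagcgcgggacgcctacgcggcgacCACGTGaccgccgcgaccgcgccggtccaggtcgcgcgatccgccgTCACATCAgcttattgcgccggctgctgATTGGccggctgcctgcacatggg
Abca1, chr4:53159896-53160095, minus strand: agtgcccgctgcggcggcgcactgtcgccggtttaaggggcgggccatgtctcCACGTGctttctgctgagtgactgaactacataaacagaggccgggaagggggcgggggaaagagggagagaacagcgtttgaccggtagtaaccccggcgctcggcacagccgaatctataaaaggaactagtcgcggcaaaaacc

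RefSeq windows of 300 bases, most of them before the start, were available for 33 of the 42 listed genes (42 windows) and for 15 of the 18 cholesterol synthesis enzymes (18 windows, of which some belong to 1 gene and overlap). TCACNNCA occurred on either strand in 9 of those 18 windows (50.0%), against 13.84% of all 32851 windows and 11.23% of windows of genes tested. CCAAT occurred in 14 of the 18 (77.78%) against 37.41% of all windows and 38.23% of windows of genes tested. CACGTG occurred in 3 of the 18 (16.67%) against 7.15% of all windows and 10.86% of windows of genes tested. The stricter form TCACNCCAC was found in 1 of the 42 windows, that of Hmgcs1, against 1.24% of all windows and 1.14% of windows of genes tested. Each match to TCACNCCAC also counts as a match to TCACNNCA. These shares describe letters in the windows and were not tested against the expression values.

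Among the 40 genes tested, 3 enzymes of cholesterol synthesis rose, Hmgcs1, Cyp51 and Dhcr7, and 1 cholesterol exporter fell, Abca1, against 3.95% of all genes tested that passed in either direction. The median log2 fold change of the 40 genes, GFP-hi over GFP-lo on the log2(RPKM + 1) scale, was 0.07, beside 0.02 for all genes tested. The 18 enzymes of the mevalonate, squalene and sterol arms had a median of 0.16 and the 22 other genes one of -0.03. The plot of fold changes by role shows this split.

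**Figure D1:**
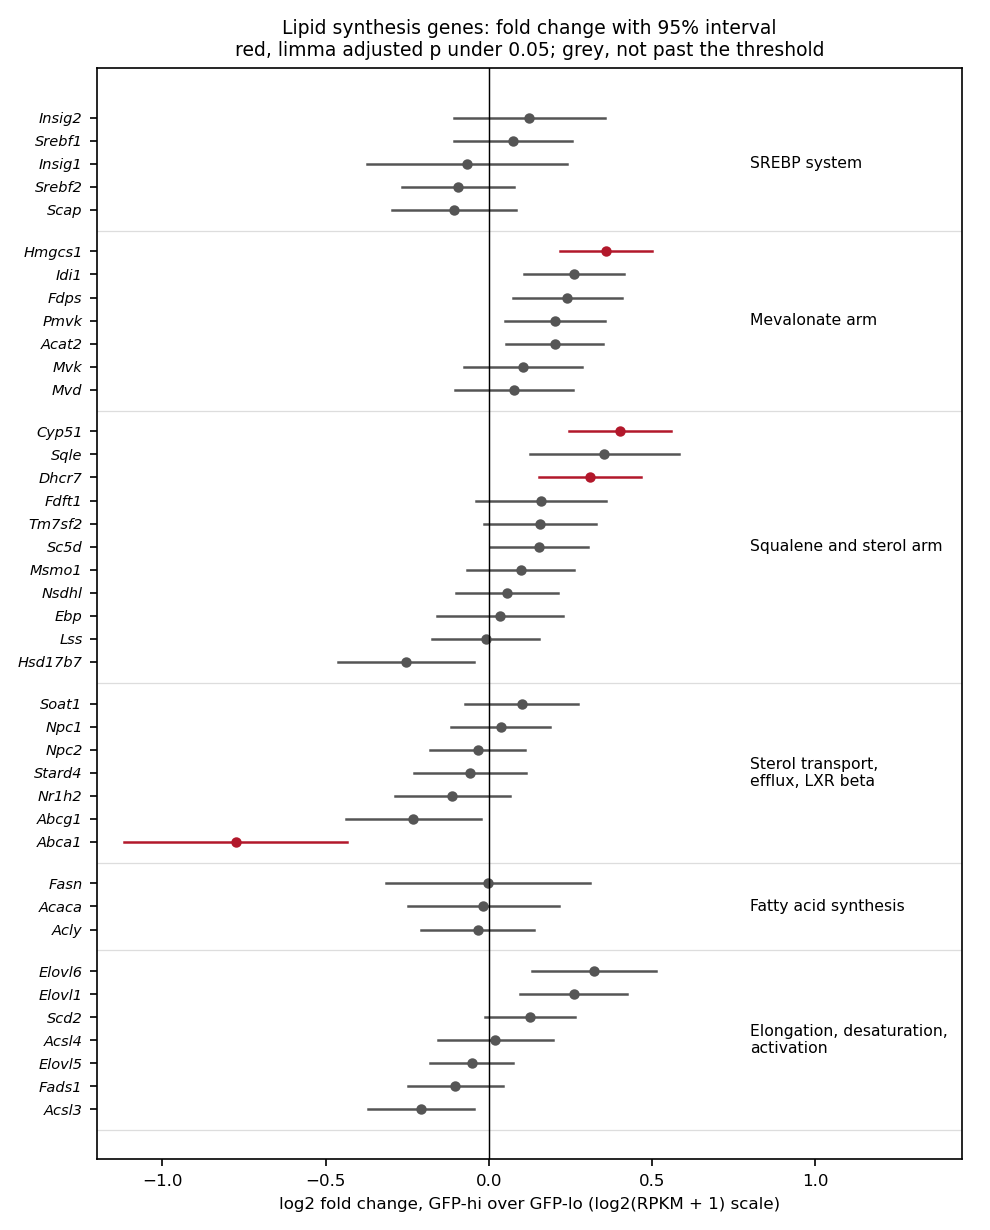
Log2 fold change of the 40 tested genes, GFP-hi over GFP-lo on the log2(RPKM + 1) scale (horizontal axis), grouped by role; points are limma estimates from 3 libraries per group, lines are 95% intervals, and red marks an adjusted p under 0.05. All 7 genes of the mevalonate arm and 9 of 11 of the squalene and sterol arm lie to the right of 0, and Abca1 lies farthest to the left at -0.78.

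All 7 genes of the mevalonate arm had a positive fold change (median 0.20), against 55.5% of all genes tested. Hmgcs1 was the 1 gene of the arm that passed the test, beside 2.46% of all genes tested that were called higher. In 5 of the 7 genes every GFP-hi library lay above every GFP-lo library, as in 17.1% of all genes tested. Hmgcs1 (Entrez 208715, chr13:119690379-119708260) encodes the cytosolic HMG-CoA synthase, which commits acetyl units to mevalonate. It had 13.0, 12.5 and 12.7 RPKM in the GFP-hi libraries and 10.5, 9.45 and 9.29 RPKM in the GFP-lo libraries. The groups did not overlap, and the gap between them was wider than the spread within either. Mean levels were 12.8 ± 0.254 and 9.74 ± 0.642 RPKM (SD, n = 3 each), which is 0.36 on the log2 scale (limma, standard error 0.061, adjusted p = 0.019). It missed the threshold when GFP-hi library 1 (adjusted p = 0.078) or 3 (0.071), or GFP-lo library 2 (0.086) or 3 (0.082), was left out, with fold changes from 0.33 to 0.41 over all 6 omissions. In Hmgcs1, 557 of 4594 exonic bases are shared with Gm48342 on the opposite strand, and reads without strand cannot be assigned to either.

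Idi1, the isomerase that readies isoprenoid units for joining, had 3.19, 3.03 and 2.99 RPKM in GFP-hi and 2.25, 2.40 and 2.54 RPKM in GFP-lo libraries. Its groups did not overlap, but the log2 fold change of 0.26 did not pass (limma, standard error 0.066, adjusted p = 0.073). Gm48574 on the opposite strand shares 323 of the 3505 exonic bases. Fdps, which builds farnesyl diphosphate, the branch point to sterols and to protein prenylation, had 6.42, 7.64 and 7.48 RPKM against 5.87, 5.78 and 6.06 RPKM. All GFP-hi values were again the higher ones, GFP-hi replicate 1 being the nearest to the other group, and the log2 fold change was 0.24 (limma, standard error 0.072, adjusted p = 0.12). Gm43738, on the same strand, shares 1124 of the 4208 exonic bases of Fdps, whose values are uncertain for that reason.

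Pmvk, a kinase that acts on phosphomevalonate, had 3.77, 3.96 and 3.68 RPKM in GFP-hi libraries and 3.41, 3.0 and 3.12 RPKM in GFP-lo libraries. Acat2, which joins acetyl units ahead of Hmgcs1, had 10.4, 11.7 and 10.6 RPKM against 9.74, 9.33 and 8.96 RPKM. Neither gene's groups overlapped, and both differed by 0.20 on the log2 scale without passing (adjusted p from limma of 0.14 for Pmvk and 0.13 for Acat2). Acat2 has a closely similar neighbour, Acat3, to which reads could be assigned. The remaining genes of the arm were the mevalonate kinase gene Mvk (0.11) and the decarboxylase gene Mvd (0.08), whose groups overlapped.

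In the squalene and sterol arm 2 of 11 genes rose, Cyp51 and Dhcr7, and none fell, beside 2.46% and 1.49% of all genes tested. A further 7 had positive and 2 negative fold changes, with a median of 0.15 for the arm. Cyp51 (Entrez 13121, chr5:4081145-4104746), the lanosterol demethylase at the entry to the sterol steps, had 6.67, 6.02 and 6.23 RPKM in GFP-hi libraries and 4.42, 4.29 and 4.88 RPKM in GFP-lo libraries. Its groups did not overlap. Levels averaged 6.30 ± 0.331 and 4.53 ± 0.311 RPKM (SD, n = 3 each), and the log2 fold change was 0.40 (limma, standard error 0.068, adjusted p = 0.018). Omitting GFP-hi library 1 (adjusted p = 0.077) or 3 (0.064), or GFP-lo library 1 (0.060) or 2 (0.082), ended the call, with fold changes from 0.37 to 0.45 over all 6 omissions. Exons of Akap9 on the opposite strand cover 166 of its 4415 exonic bases.

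Dhcr7 (Entrez 13360, chr7:143823145-143848410) encodes a reductase of the final steps to cholesterol. It had 7.0, 6.52 and 6.85 RPKM in GFP-hi libraries and 5.77, 5.02 and 5.08 RPKM in GFP-lo libraries, with no overlap. The difference was 0.31 on the log2 scale (limma, standard error 0.068, adjusted p = 0.047), from means of 6.79 ± 0.243 and 5.29 ± 0.419 RPKM (SD, n = 3 each). This call lay close to the threshold. It held when GFP-lo library 1 was omitted (adjusted p = 0.041) and ended when GFP-hi library 1 (0.14), 2 (0.059) or 3 (0.15), or GFP-lo library 2 (0.17) or 3 (0.16), was omitted. It was also lost with quantile normalization (0.062), trimmed mean of M values scaling (0.062), no filter on low genes (0.052) and a mean RPKM of at least 5 (0.057).

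Sqle, squalene epoxidase, the first oxygen-dependent step and a known control point of the pathway, had 3.42, 2.58 and 3.55 RPKM in GFP-hi and 2.22, 2.15 and 2.39 RPKM in GFP-lo libraries. The groups did not overlap, but GFP-hi replicate 2 lay near the GFP-lo values, and the log2 fold change of 0.35 did not pass (limma, standard error 0.10, adjusted p = 0.099). Without GFP-hi replicate 2 it was 0.46 and passed (adjusted p = 0.020). Sc5d, a desaturase of the sterol ring, had 8.90, 7.79 and 8.5 RPKM in GFP-hi and 7.08, 7.6 and 7.63 RPKM in GFP-lo libraries. A log2 fold change of 0.15 did not pass (limma, standard error 0.066, adjusted p = 0.24), although the groups were separate by a narrow gap.

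Hsd17b7, a sterol ketoreductase that also acts on steroids, went the other way within the arm. It had 1.59, 1.41 and 1.68 RPKM in GFP-hi libraries and 1.85, 2.39 and 1.93 RPKM in GFP-lo libraries, without overlap. The log2 fold change of -0.25 did not pass (limma, standard error 0.090, adjusted p = 0.17). The other sterol enzymes were Fdft1 (0.16), Tm7sf2 (0.16), Msmo1 (0.10), Nsdhl (0.06), Ebp (0.03) and Lss (-0.01), by log2 fold change, with adjusted p values of 0.29 or more. Lss, which closes the sterol ring between the Sqle and Cyp51 steps, thus had nearly equal means of 1.93 ± 0.147 and 1.95 ± 0.0752 RPKM (SD, n = 3 each). Other genes share exonic bases here too. Ctsb on the opposite strand shares 774 of 4227 in Fdft1, and Vps51 on the same strand shares 532 of 4403 in Tm7sf2. In Lss, 381 of 10787 are shared with 4930483K19Rik on the opposite strand.

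Over both arms, 16 of 18 enzymes had a positive fold change, against 55.5% of all genes tested. Median centring, quantile normalization and trimmed mean of M values scaling also gave 16, removing the trend with transcript length and GC content gave 15, and a cell cycle covariate, described below, gave 13 (with 59.1% of all genes positive). The groups were fully separate and higher in GFP-hi for 12 of the 18, against 17.1% of all genes, and lower for 1, against 9.84% (26.9% in either direction). At an unadjusted p under 0.05, 9 were higher, against 12.9% of all genes, and 1 was lower, against 7.3% (20.2% in either direction). The median level of the 18 genes, relative to each gene's mean over the 6 libraries, was 0.04, 0.11 and 0.08 in the GFP-hi libraries and -0.10, -0.12 and -0.06 in the GFP-lo libraries on the log2(RPKM + 1) scale. All 3 GFP-hi libraries thus lay above all 3 GFP-lo libraries. The same held for the lists of fatty acid oxidation and lipolysis and of other fatty acid synthesis, elongation and activation genes, described below.

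**Figure D2:**
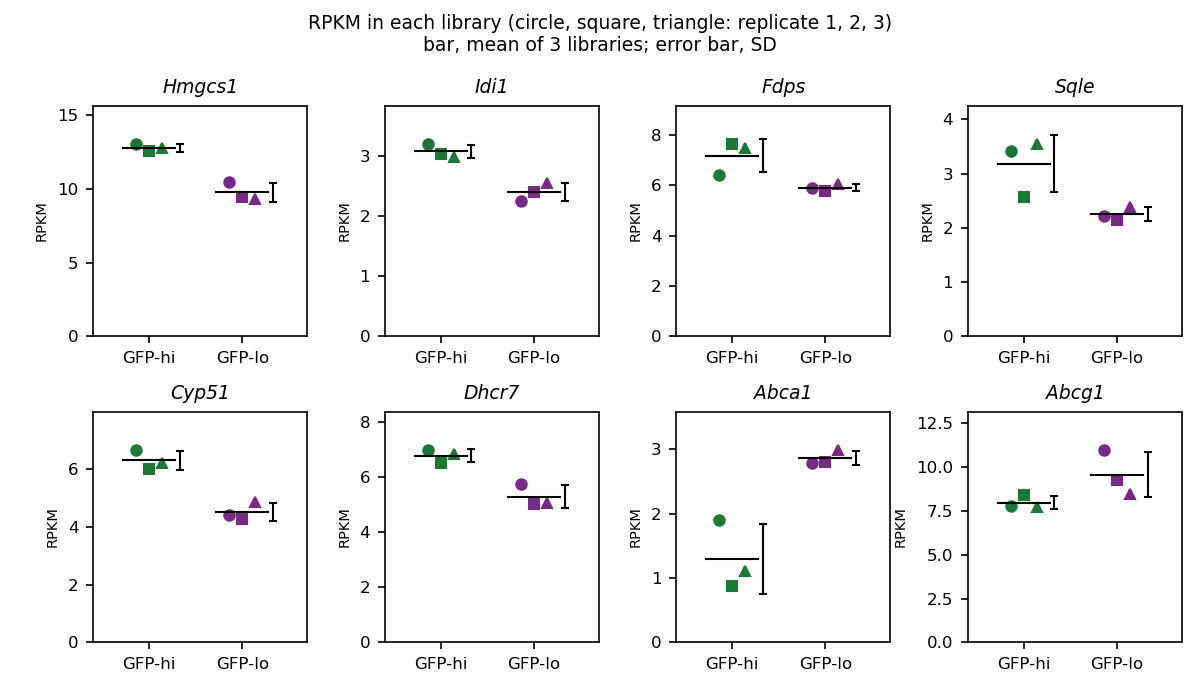
RPKM (vertical axes, from 0) of 6 cholesterol synthesis enzymes and 2 sterol exporters in each library; symbols mark replicates 1 to 3 of each population, black lines the mean and error bars the SD over 3 libraries. All GFP-hi values of the 6 enzymes lie above the GFP-lo values, narrowly so for GFP-hi replicate 2 of Sqle, and all GFP-hi values of Abca1 and Abcg1 lie below.

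The genes of the SREBP control system did not differ past the threshold, and all 5 had overlapping groups. Srebf2, which encodes SREBP-2, had 22.3, 18.3 and 20.6 RPKM in GFP-hi and 21.3, 22.0 and 22.0 RPKM in GFP-lo libraries (log2 fold change -0.09, 95% interval -0.26 to 0.08). Srebf1, which encodes the SREBP-1 proteins, had 18.6, 17.9 and 18.1 RPKM against 19.3, 15.5 and 17.1 RPKM (0.08, 95% interval -0.11 to 0.26). Scap, the escort, had 25.5, 21.6 and 26.6 RPKM against 27.7, 25.0 and 26.6 RPKM (-0.11, 95% interval -0.30 to 0.08). In Srebf2 and Scap the lowest of the 6 values was that of GFP-hi replicate 2. Exons of 5830462I19Rik on the opposite strand cover 985 of the 7443 exonic bases of Scap.

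Insig1, a retention factor that is itself an SREBP target, had 8.78, 5.88 and 8.93 RPKM in GFP-hi and 7.93, 8.42 and 8.11 RPKM in GFP-lo libraries. GFP-hi replicate 2 was the lowest value while the other GFP-hi libraries were the highest, so the log2 fold change of -0.07 (95% interval -0.37 to 0.24) became 0.11 without that library (limma adjusted p = 0.36). Its relative Insig2, which does not depend on SREBP in the same way, had 3.25, 4.52 and 3.78 RPKM against 3.64, 3.48 and 3.16 RPKM. There GFP-hi replicate 2 was the highest value, and the log2 fold change was 0.12 (95% interval -0.11 to 0.36). Adjusted p values of the 5 genes ran from 0.53 to 0.83.

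The largest difference among the 40 genes was a fall of the cholesterol exporter Abca1 (Entrez 11303, chr4:53030787-53159895), which passes cholesterol and phospholipid to lipid-poor apolipoproteins. It had 1.90, 0.873 and 1.11 RPKM in the GFP-hi libraries and 2.79, 2.80 and 2.99 RPKM in the GFP-lo libraries. The groups did not overlap, the GFP-lo values were close together, and GFP-hi replicate 1 lay between the other GFP-hi libraries and the GFP-lo group. Means were 1.29 ± 0.540 and 2.86 ± 0.111 RPKM (SD, n = 3 each), a ratio of 0.453 between the RPKM values. On the log2(RPKM + 1) scale, which understates the change of a gene at this level, the difference was -0.78 (limma, standard error 0.148, adjusted p = 0.029). The call held when GFP-hi library 1 was omitted (-0.96, adjusted p = 0.0052). It ended when GFP-hi library 2 (-0.64, adjusted p = 0.052) or 3 (0.089), or GFP-lo library 1 (0.091), 2 (0.095) or 3 (0.097), was omitted. Abca1 has a long transcript, of 10262 bases, and its fold change was -0.72 with the trend with length and GC content removed (adjusted p = 0.014).

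Abcg1, which exports cholesterol to mature lipoprotein particles, had 7.79, 8.4 and 7.72 RPKM in GFP-hi and 11.0, 9.28 and 8.47 RPKM in GFP-lo libraries. The groups were separate, although GFP-hi replicate 2 and GFP-lo replicate 3 almost met, and the log2 fold change of -0.23 did not pass (limma, standard error 0.089, adjusted p = 0.21). Nr1h2, the LXR beta gene, had 14.1 ± 1.14 and 15.3 ± 1.17 RPKM (SD, n = 3 each) and overlapping groups (-0.11, adjusted p = 0.47). Among the transport genes, Npc2, a lysosomal cholesterol carrier and 1 of the 3 most abundant genes of the list, had 32.3, 36.2 and 32.5 RPKM against 33.4, 36.1 and 33.9 RPKM. It did not pass (-0.03, adjusted p = 0.82), and in both populations replicate 2 was the highest library. Its partner Npc1 (0.04), the esterifying enzyme gene Soat1 (0.10) and the sterol carrier gene Stard4 (-0.06) also had overlapping groups.

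The 3 genes of fatty acid synthesis did not pass and had fold changes between -0.03 and -0.002. Acly, which splits citrate into cytosolic acetyl-CoA for both pathways, had 61.4, 53.1 and 60.2 RPKM in GFP-hi and 64.2, 56.3 and 58.3 RPKM in GFP-lo libraries (95% interval -0.21 to 0.14). Fasn, the fatty acid synthase, had 32.2, 22.0 and 31.2 RPKM against 30.5, 26.2 and 27.8 RPKM (95% interval -0.32 to 0.31). Acaca, which makes malonyl-CoA, had 2.74, 1.93 and 2.48 RPKM against 2.35, 2.25 and 2.62 RPKM (95% interval -0.25 to 0.22). For all 3 genes replicate 2 was the lowest library of its population.

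Genes of fatty acid elongation, desaturation and activation moved in both directions, and none of the 7 tested passed. Elovl6, which lengthens palmitate and is a known SREBP-1 target, had 2.48, 2.97 and 2.71 RPKM in GFP-hi and 1.79, 1.95 and 2.19 RPKM in GFP-lo libraries (0.32 on the log2 scale, limma standard error 0.082, adjusted p = 0.074). Elovl1, which lengthens saturated very long chains, had 13.5, 15.8 and 13.6 RPKM against 11.4, 12.1 and 11.8 RPKM (0.26, standard error 0.071, adjusted p = 0.090). In both genes the groups did not overlap and GFP-hi replicate 2 was the highest library. Exons of the mitotic gene Cdc20 on the opposite strand cover 53 of the 2726 exonic bases of Elovl1.

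Acsl3, which activates fatty acids for lipid droplets, had 1.06, 1.17 and 1.14 RPKM in GFP-hi libraries, below 1.43, 1.40 and 1.53 RPKM in GFP-lo libraries. A log2 fold change of -0.21 did not pass (limma, standard error 0.070, adjusted p = 0.16). Utp14b on the same strand shares 244 of the 4357 exonic bases of Acsl3. Elovl5, the most abundant gene of the list, had 64.4, 65.6 and 61.1 RPKM against 63.3, 67.7 and 67.4 RPKM, with overlapping groups (-0.05, adjusted p = 0.65). Scd2 (0.13) was separate and higher and Fads1 (-0.10) separate and lower in GFP-hi, both without passing, and Acsl4 (0.02) overlapped. Fads2, which was not tested, had 0.707, 0.025 and 0.958 RPKM in GFP-hi and 0.054, 0.118 and 0.950 RPKM in GFP-lo libraries, with overlapping groups.

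**Figure D3:**
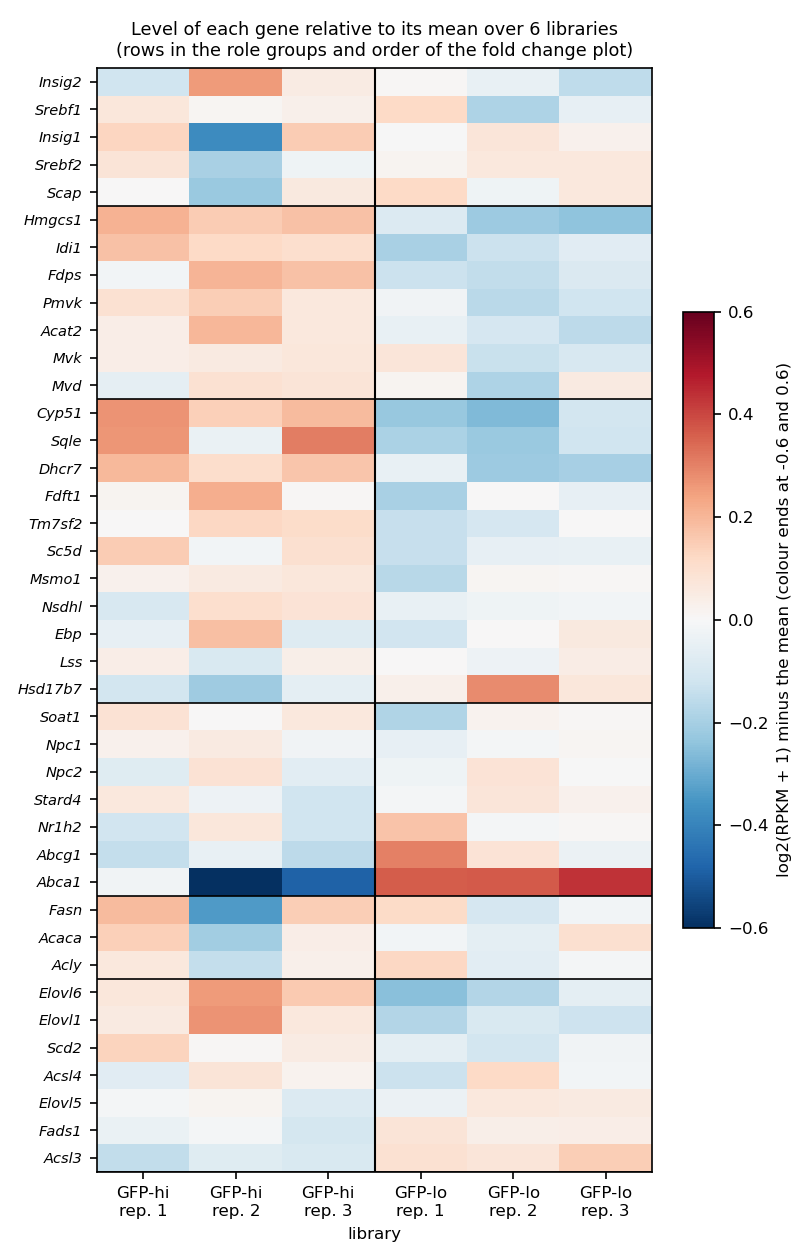
Level of each of the 40 tested genes in each library (columns), as log2(RPKM + 1) minus the gene's mean over the 6 libraries (colour, ending at -0.6 and 0.6), with black lines between role groups. Cholesterol synthesis enzymes are mostly red in GFP-hi and blue in GFP-lo libraries, Abca1 shows the reverse, and Insig1 and Fasn are lowest in GFP-hi replicate 2.

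The listed genes were about as steady within populations as other genes. Their within-group SD had a median of 0.0863 on the log2(RPKM + 1) scale over the 40 genes, beside 0.0897 over all genes tested. Among the 40, the SD was lowest for Npc1 (0.0345) and highest for Abca1 (0.233), Fasn (0.222) and Insig1 (0.214).

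Other genes of lipid metabolism were taken from lists of 136 further genes, of which 113 were tested; 3 rose and 1 fell, against 3.95% of all genes. Mylip, an LXR target that degrades lipoprotein receptors, fell, with 19.4, 17.8 and 18.6 RPKM in GFP-hi and 25.7, 23.0 and 23.7 RPKM in GFP-lo libraries (-0.36 on the log2 scale, limma standard error 0.062, adjusted p = 0.021). It was the 1 gene called among 10 tested of the list of LXR, its partners and other targets, whose median was -0.11. Arl4c, another known LXR target, had 18.9, 23.9 and 21.5 RPKM against 28.9, 24.5 and 26.4 RPKM (-0.30, adjusted p = 0.12), and Lpcat3, a further one, had 12.6 ± 0.743 against 12.0 ± 0.618 RPKM (SD, n = 3 each) and overlapping groups (0.07, adjusted p = 0.63).

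Among 20 tested genes of other fatty acid synthesis, elongation and activation steps, 2 rose and none fell (median 0.06), beside 2.46% and 1.49% of all genes tested. Fabp5, a fatty acid carrier, had 1.90, 2.39 and 2.0 RPKM in GFP-hi and 1.13, 1.06 and 1.21 RPKM in GFP-lo libraries (0.54 on the log2 scale, limma standard error 0.084, adjusted p = 0.014). Tecr, which completes each round of elongation, had 27.1, 30.5 and 28.5 RPKM against 22.1, 23.9 and 22.2 RPKM (0.32, standard error 0.063, adjusted p = 0.030). Neither gene's groups overlapped. No gene was called by limma among 19 of the isoprenoid branches and other sterol steps (median -0.0004), 18 other SREBP regulators (-0.005) or 24 of sterol transport and storage (0.04). There 2, 4 and 4 genes had an unadjusted limma p under 0.05, beside 20.2% of all genes tested. Of these 113 genes limma called 0 when GFP-lo library 2 was omitted. In that fit 24 of them had an unadjusted p under 0.05, beside 1450 of the 9351 genes tested. Limma called 1 of the 113 when GFP-hi library 1 or 3 or GFP-lo library 3 was omitted, and 2 when GFP-lo library 1 was omitted. Over all genes tested, these fits called 153, 186, 157 and 235 genes in that order, beside 369 with no library omitted.

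Markers of division differed between the same libraries. All 16 cell cycle genes tested of a list of 22 had a positive fold change (median 0.82), and 11 rose. Their median level relative to the mean over the 6 libraries was 0.48, 0.23 and 0.49 in GFP-hi and -0.51, -0.37 and -0.30 in GFP-lo libraries. A covariate was taken as the mean level of all 22 listed cell cycle genes, tested or not. With it, limma called none of the 40 lipid genes and none of all genes tested (9 and 1784 at an unadjusted p under 0.05). The median of all genes moved from 0.02 to 0.12. That cell cycle level and the population cannot be told apart. Heat-shock and dissociation genes had a median fold change of -0.23 over 19 genes, none of them called by limma (1 at an unadjusted p under 0.05). With their mean as a covariate Hmgcs1 (adjusted p = 0.019), Cyp51 (0.017), Dhcr7 (0.035) and Abca1 (0.018) kept their calls. Among the 4 libraries other than replicate 2 of each population, their fold changes were 0.35, 0.40, 0.30 and -0.65. Limma called none of them there (adjusted p from 0.094 to 0.16). In that fit 11 of the 40 genes had an unadjusted p under 0.05, beside 1447 of the 9351 genes tested.

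Of B cell markers 2 of 7 were listed, with a summed level of 12.5 to 14.2 RPKM in GFP-hi and 10.9 to 11.3 RPKM in GFP-lo libraries, nearly all of it Cd79b. Ms4a1, a defining B cell gene, was at a mean of 0.358 RPKM. Myeloid markers (2 of 8 listed) summed to 1.34 to 1.99 and 1.58 to 2.5 RPKM, dendritic cell markers (2 of 5) to 0.236 to 0.614 and 0.227 to 0.986 RPKM, and NK cell markers (2 of 5) to 5.71 to 8.61 and 6.34 to 8.34 RPKM. Erythroid markers (2 of 7) summed to 4.36 to 5.74 against 2.38 to 3.55 RPKM, mostly Car2, which rose (log2 fold change 0.73, limma adjusted p = 0.0036), while Hba-a1, the alpha-globin gene, was at 0.701 ± 1.07 and 0.787 ± 0.605 RPKM (SD, n = 3 each) with overlapping groups. CD4 T cell markers (2 of 5) summed to 15.8 to 25.6 against 36.5 to 48.2 RPKM, mostly Cd40lg, which fell (-1.13, adjusted p = 0.011). The other listed marker, Ctla4, did not pass and had the opposite sign, with a log2 fold change of 0.53 (adjusted p of 0.16 from limma), from 2.54 ± 0.790 and 1.42 ± 0.393 RPKM (SD, n = 3 each). The part of other cells in the differences of the lipid genes was not tested.

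**Figure D4:**
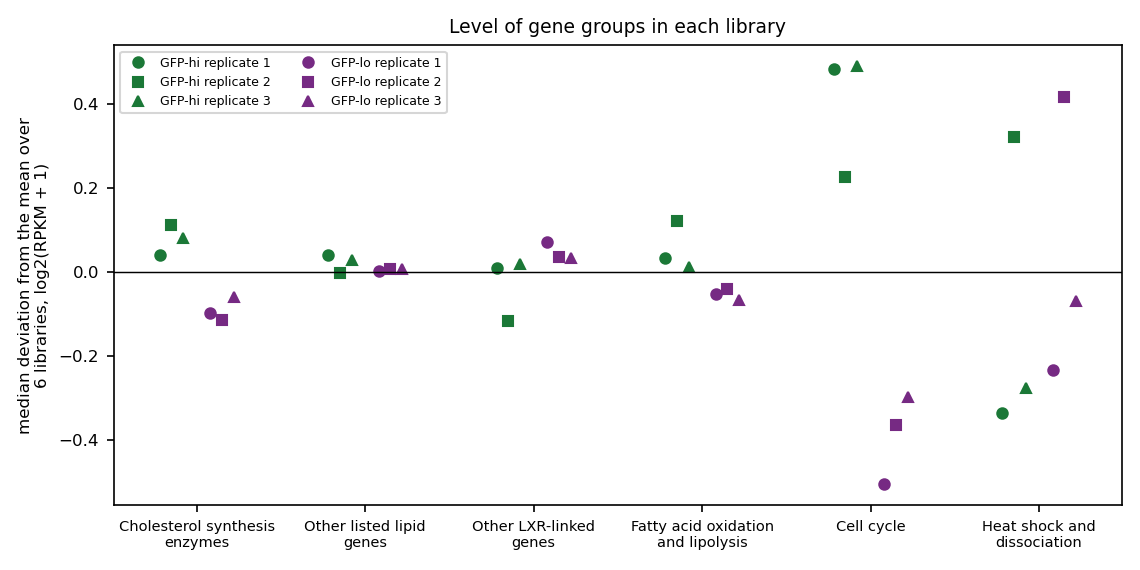
Median level of 6 gene groups in each library, as the deviation from each gene's mean over the 6 libraries on the log2(RPKM + 1) scale (vertical axis); green marks GFP-hi and purple GFP-lo, and symbols mark replicates 1 to 3. Cholesterol synthesis enzymes, fatty acid oxidation and lipolysis genes and cell cycle genes are higher in every GFP-hi library than in any GFP-lo library. Heat-shock genes are high in replicate 2 of both populations.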

How the data were processed

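Per the file headers, the authors deposited RPKM in 1 column per sample, and columns were matched to samples by title. STAR and mm10 are named in the submitters' processing notes, while the read counter and annotation are not given in the sources used here. Per the labels' protocols, libraries were made with the SMART-seq v4 and Nextera XT kits, which do not mark strand. Depth was recovered from the step that 1 read makes in genes with a single GENCODE M21 transcript (at least 89.0% of low values within 0.1 of a whole read); such depths speak to counting error only. Genes averaging 1 RPKM or more were tested with limma 3.58.1 (R 4.3.3) on log2(RPKM + 1), with a mean-variance trend, 3 against 3 libraries, no covariate, two-sided tests and Benjamini-Hochberg adjustment over all 9351 genes. On simulated data with 200 genes changed by 1 on the log2 scale, 95.5% were recovered and 4% of calls were false. Smaller changes, such as the 0.31 to 0.40 of the called enzymes, were not simulated, so recovery at their size is unknown. The simulated noise was independent between genes, without effects shared across a library. Alternatives changed the pseudocount, filter, scaling, variance model, samples and covariates. The members and gene lists were chosen with earlier results of these data known. Values in every sample are given for listed genes with an unadjusted p under 0.05, the 3 most abundant and the 5 SREBP system genes; from the other lists, called genes are named. Arl4c, Lpcat3 and the remaining listed genes given by fold change were named after their values were seen. Promoters came from RefSeq and gene coordinates from GENCODE M21, both on GRCm38, the build that mm10 names. Exons of Srebf1, Npc1, Elovl6 and Scd2 also overlap those of other annotated genes. Figures were drawn with matplotlib 3.10.9.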

Additional observations from a re-analysis of the deposited data

How the results depend on the processing

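Of 21 alternatives per result, those with length and GC content removed or a cell cycle covariate were added after the data had been seen. Both subsets of 4 libraries were defined by heat-shock or nasal receptor levels in these same data. No paired analysis was possible because the labels tie no GFP-hi library to a GFP-lo library: replicate numbers follow accession order and name the libraries. Replicate 2 of both groups was high in heat-shock genes, and whether neighbouring libraries share a batch was not tested. Main counts were 369 genes, 4 listed genes, 4 of the other lipid genes and a median of 0.07 for the 40 listed genes. Leaving out 1 library gave 133 to 315 genes, 0 to 3 listed genes, 0 to 4 other lipid genes and medians from 0.0442 to 0.0854. The counts of 0 listed genes came when GFP-hi library 3 or GFP-lo library 2 was omitted. There 12 and 11 of the 40 had an unadjusted limma p under 0.05, beside 1453 and 1450 of the 9351 genes tested. A mean RPKM of at least 5 tested fewer genes and gave 202 genes, 2 listed genes and a median of 0.0455. Array quality weights gave 1282 genes, 11 listed genes and 18 other lipid genes. The 4 libraries with lower heat-shock genes gave 101 genes (52 higher, 49 lower), 0 listed genes, 0 other lipid genes and a median of 0.0512. In that fit 24 other lipid genes had an unadjusted limma p under 0.05, beside 1447 of the 9351 genes tested. The 4 libraries with more nasal receptor reads, with GFP-hi library 2 and GFP-lo library 1 omitted, gave 422 genes, 8 other lipid genes and 4 listed genes. Sqle was called there (0.46, limma adjusted p = 0.031) and Abca1 was not (-0.66, adjusted p = 0.071). The heat-shock covariate gave 772 genes and 9 other lipid genes. Removing the trend with length and GC content gave 614 genes, 9 other lipid genes and a median of 0.0548. The cell cycle covariate gave 0 genes, 0 listed genes, 0 other lipid genes and a median of 0.15. With it, 19 other lipid genes had an unadjusted limma p under 0.05, beside 1784 of the 9351 genes tested. The median was 0.0506 with quantile normalization and 0.0395 with trimmed mean of M values scaling. The share of called genes that were higher was 62.3%, against 55.7%, 52.1% and 51.8% (318 higher, 296 lower) with quantile normalization, trimmed mean scaling (199 higher, 183 lower) and the length and GC trend removed, and 51.5% in the 4 libraries with lower heat-shock genes. Signs turned for Scap with array weights (0.0057) and that pair omitted (0.0134). They turned for Insig1 with array weights (0.0733), with lower heat-shock genes (0.128), with that pair omitted (0.0894) and when GFP-hi library 2 was omitted (0.107, in a range from -0.158 to 0.107 over the 6 omissions). Acly turned with array weights (0.0462), with that pair omitted (0.0838), and when GFP-hi library 2 (0.0302) or GFP-lo library 1 (0.0203) was omitted, in a range from -0.0724 to 0.0302. With the cell cycle covariate Sqle (-0.68), Sc5d (-0.30), Abcg1 (0.37), Npc2 (0.39) and Elovl5 (0.10) turned. None of these passed the limma threshold in that fit, and where no construction is named the cause was not tested. Of the 4 called genes none changed sign in any alternative that tested it. At low RPKM, depth limits what can be seen.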

Other observations

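Of 22 tested genes of fatty acid oxidation and lipolysis, 1 rose in GFP-hi cells, Hadha, and none fell, against 2.46% of all genes tested that were called higher. A positive log2 fold change was found in 20 of the 22, against 55.5% of all genes tested, and the median was 0.14, beside 0.02. Hadha, a subunit of the mitochondrial trifunctional protein, had 17.4, 16.7 and 16.8 RPKM in GFP-hi and 14.3, 13.4 and 13.7 RPKM in GFP-lo libraries, without overlap (log2 fold change 0.28, standard error 0.053, limma adjusted p = 0.028). Acaa2, Etfa, Decr1, Eci2 and Acadl, which serve the same mitochondrial cycle, had fold changes of 0.20, 0.23, 0.28, 0.17 and 0.18 with an unadjusted p under 0.05 and did not pass after adjustment. At that level 6 of the 22 genes were higher, against 12.9% of all genes tested, and 0 lower, against 7.3%. Hadhb had a fold change of 0.01 and overlapping groups, and the 2 negative genes, Eci1 and Acaa1a, were at -0.06 each. Cpt1a, which admits fatty acids to mitochondria, had a fold change of 0.02. The median level of the list was 0.03, 0.12 and 0.01 in GFP-hi and -0.05, -0.04 and -0.07 in GFP-lo libraries relative to the mean over the 6 libraries, highest in GFP-hi replicate 2. Every GFP-hi library thus lay above every GFP-lo library, as for the cholesterol synthesis enzymes.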
